A study of Mus musculus with 7 samples.

Results

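The zinc finger genes named Zfp900 to Zfp999 were taken as every row of the gene count table whose symbol is Zfp9 followed by a pair of further digits. There were 64 such genes among the 55484 rows, and all 64 matched an annotated gene of the mouse genome (GENCODE M21, build GRCm38). Their RNA was compared between mouse embryonic stem cells (mESCs), pluripotent cells grown from the early embryo, and mouse embryonic fibroblasts (MEFs), connective tissue cells grown from later embryos. There were 3 mESC and 4 MEF libraries, with no treatment and no engineered allele named for either cell type. The study states a C57/Bl6 background for all its MEFs and mESCs in the methods of its chromatin accessibility libraries. Its methods for the RNA libraries name no strain. The study describes its transcriptional data as 3 biological replicates for each cell type, while the count table holds 4 MEF columns, all used here. The labels name neither the stem cell line nor separate cultures or embryos for the libraries, so the p-values measure only the spread between these libraries, which may be technical.

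The C2H2 zinc finger is a short protein loop that holds a zinc ion and reads a few bases of DNA. Many of these genes also encode a KRAB domain, which recruits the co-repressor Trim28 and, through it, enzymes that compact chromatin. KRAB zinc finger genes multiplied in rodents by local duplication and lie in clusters of near copies, and proteins of the mouse clusters on chromosomes 2 and 4 are known to silence mobile elements in early embryos and stem cells.

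In the annotation, 63 of the 64 genes had a coding sequence, and 59 of those held a KRAB A box by sequence pattern. The number of C2H2 fingers ran from 0 to 21, with a median of 11. The genes lay on 12 chromosomes. Neighbours less than 1 Mb apart were grouped into 6 clusters that held 45 genes, with 16 on chromosome 4, 10 each on chromosomes 17 and 2, 4 on chromosome 7, 3 on chromosome 8 and 2 on chromosome 13. The other 19 genes stood alone.

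The chromosome 4 cluster held most of the large differences described here, and its promoter windows are shown first because its genes moved together. RefSeq (GRCm38.p6) gives a window of 250 bases before and 50 after the start for 54 of the 64 genes and for 10 of the 16 on chromosome 4. Capitals mark CCAAT on either strand (ATTGG on the other) and AAGCAAGCAA on either strand, a 10-base sequence shared by the most chromosome 4 windows. Ties were settled by alphabetical order, and other 10-base sequences found in as many windows were not counted. The sequences run 5′ to 3′ on the strand of the gene. The chromosome 4 windows shown are those of Zfp988, Zfp985, Zfp979 and Zfp980, which were higher in mESCs than in MEFs, and of Zfp933, the cluster's 1 gene that did not pass the test. The windows of Zfp977 and Zfp936 are from the chromosome 7 cluster, and the RefSeq start of Zfp936 lies 63361 bases inside the gene's GENCODE start.
Zfp988, chr4:147305354-147305653, plus strand: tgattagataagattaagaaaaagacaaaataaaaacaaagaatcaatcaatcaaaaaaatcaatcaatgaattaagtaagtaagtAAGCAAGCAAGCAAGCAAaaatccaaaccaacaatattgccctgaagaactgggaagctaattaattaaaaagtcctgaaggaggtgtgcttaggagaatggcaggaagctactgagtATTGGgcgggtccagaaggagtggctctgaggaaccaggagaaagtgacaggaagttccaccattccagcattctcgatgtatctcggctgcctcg
Zfp985, chr4:147553027-147553326, plus strand: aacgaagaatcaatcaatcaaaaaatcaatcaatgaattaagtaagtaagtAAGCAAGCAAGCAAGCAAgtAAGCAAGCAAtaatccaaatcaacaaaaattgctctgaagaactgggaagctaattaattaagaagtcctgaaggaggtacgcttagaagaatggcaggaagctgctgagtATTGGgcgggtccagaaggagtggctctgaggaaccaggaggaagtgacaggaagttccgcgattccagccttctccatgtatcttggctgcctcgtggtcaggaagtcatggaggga
Zfp979, chr4:147642459-147642758, minus strand: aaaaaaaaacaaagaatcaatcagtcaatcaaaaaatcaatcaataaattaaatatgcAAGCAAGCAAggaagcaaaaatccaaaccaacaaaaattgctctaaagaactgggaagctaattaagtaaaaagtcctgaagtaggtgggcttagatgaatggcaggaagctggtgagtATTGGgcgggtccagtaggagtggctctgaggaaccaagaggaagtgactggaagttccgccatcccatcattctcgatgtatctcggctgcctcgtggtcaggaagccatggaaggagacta
Zfp980, chr4:145670447-145670746, plus strand: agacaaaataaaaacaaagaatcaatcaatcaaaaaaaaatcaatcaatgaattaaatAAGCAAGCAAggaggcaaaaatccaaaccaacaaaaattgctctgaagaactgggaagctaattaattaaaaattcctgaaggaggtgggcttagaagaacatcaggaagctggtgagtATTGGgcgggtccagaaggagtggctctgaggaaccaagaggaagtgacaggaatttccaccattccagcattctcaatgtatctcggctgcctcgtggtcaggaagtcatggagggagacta
Zfp933, chr4:147848369-147848668, minus strand: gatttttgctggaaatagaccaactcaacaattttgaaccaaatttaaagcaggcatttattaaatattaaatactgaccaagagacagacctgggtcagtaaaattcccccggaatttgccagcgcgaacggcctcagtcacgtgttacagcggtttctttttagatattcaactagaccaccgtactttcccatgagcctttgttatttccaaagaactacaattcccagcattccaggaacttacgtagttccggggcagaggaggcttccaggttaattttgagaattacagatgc
Zfp977, chr7:42592496-42592795, minus strand: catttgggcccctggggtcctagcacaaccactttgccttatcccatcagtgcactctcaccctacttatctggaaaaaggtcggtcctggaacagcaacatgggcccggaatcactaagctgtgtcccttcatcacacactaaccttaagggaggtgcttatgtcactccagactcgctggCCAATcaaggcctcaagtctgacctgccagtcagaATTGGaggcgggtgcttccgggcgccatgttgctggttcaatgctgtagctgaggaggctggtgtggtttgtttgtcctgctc
Zfp936, chr7:43177340-43177639, plus strand: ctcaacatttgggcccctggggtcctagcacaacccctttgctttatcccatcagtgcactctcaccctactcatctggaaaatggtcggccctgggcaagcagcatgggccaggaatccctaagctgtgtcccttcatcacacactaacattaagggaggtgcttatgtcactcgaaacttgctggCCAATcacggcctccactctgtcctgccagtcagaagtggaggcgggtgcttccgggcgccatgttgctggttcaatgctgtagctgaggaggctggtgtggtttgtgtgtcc

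Of the 10 chromosome 4 windows, 8 were alike, with a median of 81.8% identical bases over their 28 pairs (69.7% to 91.0%). The windows of Zfp933 and Zfp993 were unlike these and each other. The 9 pairs with Zfp933 had a median of 51.3% (49.7% to 53.0%). The 8 other pairs with Zfp993, which was higher in mESCs, had a median of 45.6% (42.7% to 48.0%). Genes that stood alone had a median of 51.0%. Like windows were not particular to chromosome 4. The median was 87.0% over 36 pairs in the chromosome 2 cluster, where 8 of 10 genes were not tested and 2 did not pass. It was 80.8% over 6 pairs on chromosome 7 and 51.7% over 45 pairs in the chromosome 17 cluster. Whether like windows go with a rise in mESCs was not tested. AAGCAAGCAA was present in 8 of the 10 chromosome 4 windows, in no other window of the 54 and in 0.259% of all 32851 windows. Because this sequence was picked from the chromosome 4 windows, its count there is a description. The CCAAT letters were in the same 8 chromosome 4 windows, in 75.9% of all 54 windows and in 37.4% of windows genome-wide. Zfp933 and Zfp993 held neither. The GC box letters GGGCGG (either strand) were in 7 of the 10, against 35.7% genome-wide. The octamer ATGCAAAT, which Pou5f1 and related factors read, was in none of the 10 and in 1.74% of all windows. The TATA box letters TATAAA were in none of the 54 and in 13.6% of all windows. The windows of Zfp936 and Zfp977 were identical at 91.3% of bases and both held CCAAT.

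Libraries held 6528643 to 11441278 counts in MEFs and 7462710 to 8193825 in mESCs. Below, counts are given in the order of the MEF libraries of 11441278, 7312679, 9176467 and 6528643 counts and then of the mESC libraries of 8193825, 8057985 and 7462710. Levels are CPM, counts scaled to a common library total of 1000000, as mean ± SD with n = 4 MEF and n = 3 mESC libraries, and 3 counts, taken as the floor, correspond to 0.262 to 0.46 CPM. Libraries of the same cell type differed by more than sampling noise in every pair (chi-square per degree of freedom from 15.6 to 31.1). All 11 pluripotency markers were higher in mESCs (summed 3960 to 4130 CPM, against 40.3 to 44.6 in MEFs), and all 11 fibroblast markers were lower (183 to 211 against 21700 to 37200). The extraction text in the labels speaks of blood stem cells, whose 10 markers summed to 27.2 to 38.9 CPM in MEFs and 4.84 to 9.38 in mESCs, with Ptprc at no more than 1 count in any mESC library; 4 were tested and Cd34 was lower in mESCs. Of the 7 primitive endoderm and differentiation genes, 2 were tested and Dab2 was lower in mESCs; the list summed to 74.8 to 130 CPM in MEFs and 26 to 94 in mESCs, most of it from Dab2 and Gata6. The untested Sox17 (0 counts in every MEF library, and 51, 41 and 9 in mESCs), Sox7 (4, 0, 1 and 1 against 35, 20 and 6) and Gata4 (0, 5, 0 and 0 against 18, 7 and 19) lay above every MEF library in each mESC library. Of 7 genes of 2-cell-like cells, 6 were in the table and summed to at most 1.09 CPM in MEFs and 1.34 to 2.32 in mESCs, with Zscan4f and Tcstv3 at 0 throughout.

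Of the 64 genes, 53 had enough counts to be tested, which is 82.8% against 29.9% of all rows. The cell types differed in 29 of the 53 (54.7%), where 47.9% of all 16580 tested genes differed (edgeR's quasi-likelihood test, adjusted p under 0.05). In mESCs 27 were higher (50.9%, against 22.8% of all tested genes) and 2 were lower (3.77%, against 25.0%), so the share that differed was near the background while its direction was not balanced. At a change of at least 2-fold, 25 were higher and 1 was lower, where 17.0% and 19.9% of all tested genes were. Every mESC library lay above every MEF library for 29 genes (25.9% of all tested genes) and below for 3 (26.2%) when scaled by TMM, edgeR's correction of library sizes. With library totals alone these counts were 32 and 1, for which no share of all tested genes is given, so they cannot be set against a background. The median log2 fold change, always mESC minus MEF, was 1.11 over the 53 genes and 0.04 over all tested genes. TMM lowered the median of all genes by 0.28, from 0.32 with library totals, where 5180 genes were higher and 3345 lower in place of 3785 and 4153. Among the 293 tested genes of the numbers Zfp1 to Zfp899, 70 were higher and 42 lower, with a median of 0.20. In such bulk samples fewer expressing cells and less RNA per cell cannot be told apart.

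**Figure D1:**
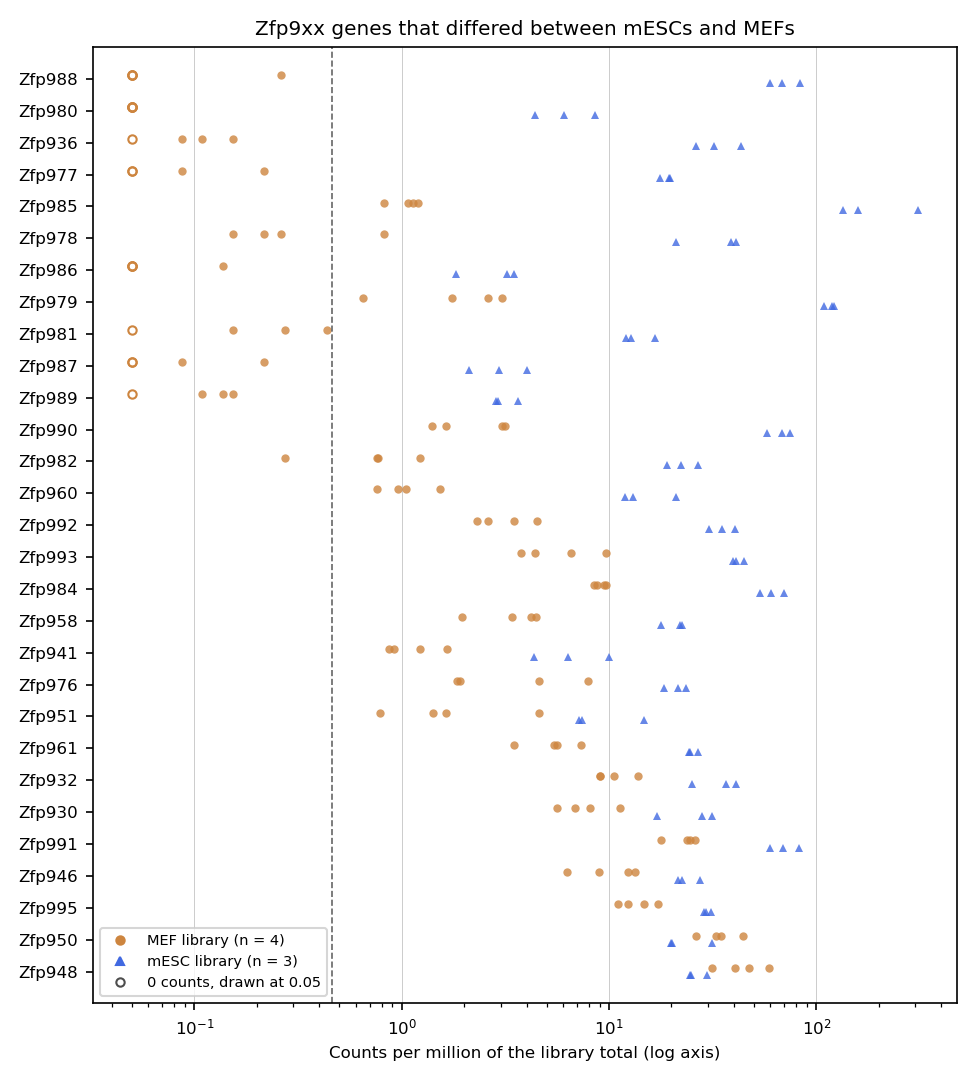
Levels in CPM (horizontal log axis) of the 29 Zfp9xx genes that differed, ordered by log2 fold change, with 1 circle per MEF library (n = 4) and 1 triangle per mESC library (n = 3). Open symbols are libraries with 0 counts, drawn at 0.05, and the dashed line is the highest floor of 3 counts, 0.46 CPM; the 27 genes at the top lie higher in every mESC library, and of the 2 at the bottom Zfp950 overlaps on this scale.

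Summed over the 64 genes, the level was 395.9 ± 57.2 CPM in MEFs (346.3 to 449.1) and 1358 ± 93.2 in mESCs (1289 to 1464). The chromosome 4 cluster accounted for most of the gap. Its 16 genes summed to 44.6, 57.4, 57.4 and 59.4 CPM in the MEF libraries and to 693, 871 and 701 in the mESC libraries, or 12.8% to 16.6% of the counts of the 64 genes in MEFs and 53.0% to 59.5% in mESCs. The remaining 48 genes summed to 341 ± 53.2 CPM in MEFs and 603 ± 15.2 in mESCs.

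**Figure D2:**
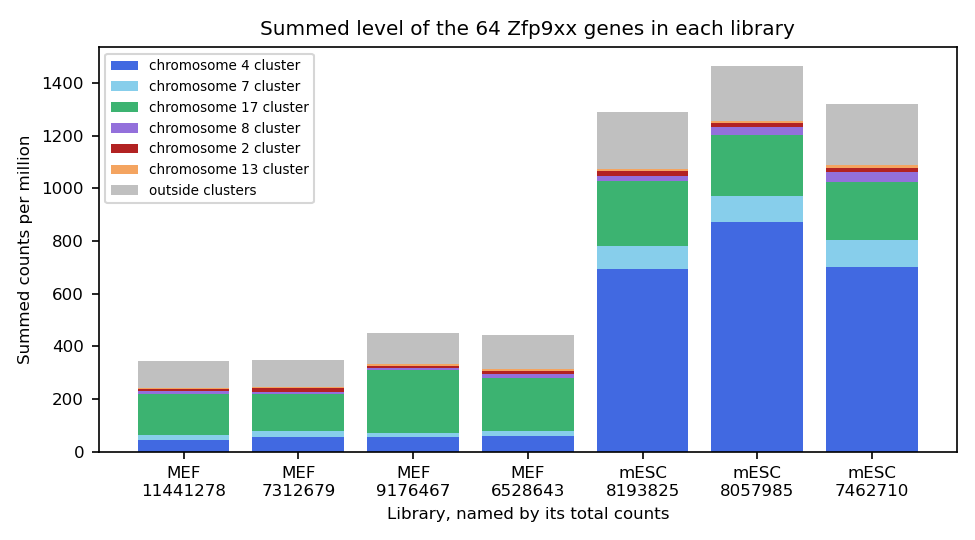
Summed CPM of the 64 Zfp9xx genes in each library (bars, from 0), split by chromosome cluster, with each library named by its total counts. The chromosome 4 part is 44.6 to 59.4 CPM in the 4 MEF libraries and 693 to 871 in the 3 mESC libraries.

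The chromosome 4 cluster spans chr4:145510759-147848366. All 16 of its genes were tested, and 15 were higher in mESCs, each by at least 2-fold and with no overlap between the cell types. The median log2 fold change was 4.65, against 0.66 over the 37 tested genes outside the cluster, of which 12 were higher and 2 lower. All 16 encode a KRAB A box by pattern, with 2 to 15 fingers.

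At or near 0 in MEFs were 5 of these genes. Zfp988 (chr4:147305674-147333734, 14 fingers) had 3, 0, 0 and 0 counts in MEFs and 556, 483 and 624 in mESCs, a ratio of 661 between pooled counts over TMM-scaled library sizes (95% interval for counting error only, 226 to 3210). The other pooled ratios and bounds below are on the same scale. Zfp980 (chr4:145670685-145704441) had 0 in every MEF library and 36, 49 and 64 in mESCs, at least 59.2-fold higher against a floor of 3 counts over the 4 libraries. Zfp988 and Zfp980 together thus had 3 reads in the 4 MEF libraries. Zfp986 had 0, 1, 0 and 0 against 15, 26 and 26, a ratio of 79.9 (13.9 to 3200). Zfp987 had 1, 0, 2 and 0 against 33, 17 and 22, a ratio of 28.6 (9.41 to 142). Zfp989 had 0, 1, 1 and 1 against 24, 23 and 27, a ratio of 29.4 (9.69 to 146). These 3 were low in mESCs too, at 2.85 ± 0.89, 3.03 ± 0.961 and 3.13 ± 0.421 CPM, and all 5 passed the test (adjusted p from 2.01e-07 to 0.000726, edgeR). All 5 shared most of their 50-base transcript sequences with other genes, so their ratios are uncertain in size. The share was 68.1% for Zfp988, 71.3% for Zfp980, 86.4% for Zfp986, 89.0% for Zfp987 and 67.9% for Zfp989.

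Zfp985, Zfp979 and Zfp990 were read at high levels in mESCs and at a low level in every MEF library. Zfp985 (chr4:147553277-147585198, 10 fingers) had 13, 6, 11 and 7 counts in MEFs and 1300, 2479 and 998 in mESCs, or 1.06 ± 0.166 CPM in MEFs and 134 to 308 in mESCs, with a log2 fold change of 7.26 ± 0.36 (SE; adjusted p = 1.26e-07, edgeR). The mESC library of 8057985 counts stood above the other two. Zfp979 (chr4:147611937-147642513, minus strand, 3 fingers) had 20, 19, 6 and 20 against 979, 978 and 815, or 2.02 ± 1.06 and 117 ± 6.54 CPM, with a log2 fold change of 5.62 ± 0.35 (adjusted p = 5.09e-07 by edgeR). Zfp990 (chr4:145510759-145539188, 13 fingers) had 16, 23, 15 and 20 against 476, 603 and 510, with a log2 fold change of 4.62 ± 0.30 (edgeR, adjusted p = 6.97e-07). For all 3 the lowest mESC library lay far above the highest MEF library.

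Zfp978, Zfp981 and Zfp982 had few MEF counts. Zfp978 had 3, 6, 2 and 1 in MEFs and 173, 311 and 307 in mESCs (log2 fold change 6.24 ± 0.48). It shared 77.4% of its 50-base transcript sequences with other genes, so this change is uncertain in size. Zfp981 had 5, 2, 0 and 1 against 99, 134 and 95 (5.56 ± 0.59). Zfp982 had 14, 2, 7 and 5 against 156, 180 and 200 (4.55 ± 0.40). The SE of these 3 changes is wider than that of Zfp985, Zfp979 and Zfp990, and their adjusted p-values ran from 2.41e-06 to 2.36e-05 (edgeR).

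The other 4 that rose had a clear MEF level and smaller changes. Zfp992 had 40, 17, 41 and 17 counts in MEFs and 287, 245 and 302 in mESCs (log2 fold change 3.15 ± 0.28). Zfp993 had 43, 32, 60 and 63 against 369, 331 and 296 (2.53 ± 0.30), and Zfp984 had 100, 69, 78 and 63 against 571, 433 and 452 (2.47 ± 0.18). Zfp991 had 205, 191, 219 and 160 against 564, 664 and 445 (1.33 ± 0.20). These adjusted p-values ran from 1.64e-06 to 0.00026 (edgeR). Zfp991 had the smallest change among the 15.

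Zfp933 (chr4:147822986-147848366, minus strand, 12 fingers) lies at the end of the cluster and did not pass the test. It had 47, 51, 85 and 30 counts in MEFs and 38, 60 and 50 in mESCs, or 6.24 ± 2.38 and 6.26 ± 1.45 CPM, with overlapping libraries (log2 fold change -0.28 ± 0.39, adjusted p = 0.599, edgeR). With library totals in place of TMM its log2 fold change was 0.01. It shared 1.83% of its 50-base transcript sequences with other genes, where the other 15 genes of the cluster shared between 11.9% (Zfp982) and 89.0% (Zfp987).

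The genes between the cluster's members were read in the same way. Of 72 annotated genes there, 66 were in the count table, 24 were tested, 18 were higher (22.8% of all tested genes were) and 6 were not called. Between the members of the other clusters, 5 of 12 tested genes were higher on chromosome 2, 2 of 6 on chromosome 17, 2 of 4 on chromosome 7 and 1 of 4 on chromosome 8, and the 1 tested on chromosome 13 was not called. On chromosome 4 the 4 protein-coding ones that were tested were all higher: Zfp534 had 2, 1, 1 and 2 counts in MEFs and 482, 848 and 709 in mESCs (log2 fold change 8.56), Gm21411 had 11, 1, 2 and 1 against 1067, 1103 and 1034 (7.99), Rex2 had 0, 1, 0 and 0 against 20, 24 and 28, and Gm13212 had 81, 40, 73 and 42 against 437, 446 and 299 (2.59). Many of the others are pseudogenes. Some of the genes between share sequence with members. Zfp980 shared 58.6% of its 50-base transcript sequences with Rex2, Zfp984 46.9% with Gm13212 and Zfp991 67.1% with Znf41-ps. Wrongly placed reads could move between the genes of such a pair, so their rises may not be separate observations. This was not tested. The 6 not called included Rps19-ps3, a ribosomal protein pseudogene, with 427, 233, 353 and 226 counts in MEFs and 392, 324 and 264 in mESCs.

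**Figure D3:**
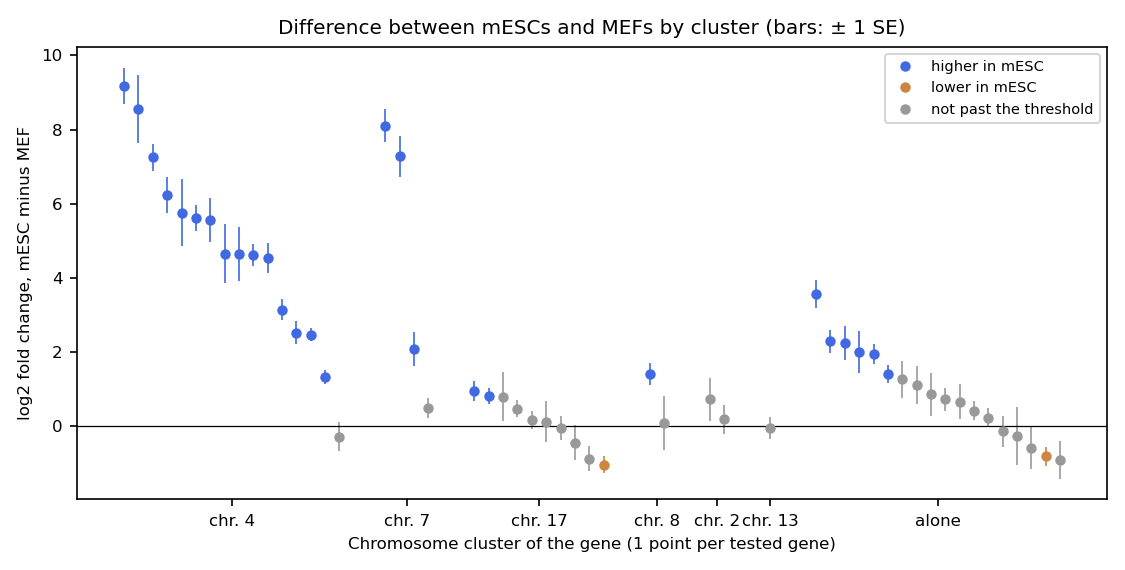
Log2 fold change, mESC minus MEF, of each of the 53 tested Zfp9xx genes (points) with ± 1 SE (bars), grouped by chromosome cluster and ordered within each. On chromosome 4, 15 of 16 genes are higher in mESCs and Zfp933 lies at -0.28; on chromosome 17, 7 of 10 are not past the threshold. The point of Zfp980, which had 0 MEF counts, depends on the fit's prior count.

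The chromosome 7 cluster held 4 genes, all tested, of which 3 were higher in mESCs, among them a pair that was close to 0 in MEFs. Zfp936 (chr7:43114229-43192109, 11 fingers) had 1, 0, 1 and 1 counts in MEFs and 216, 257 and 322 in mESCs, a pooled ratio of 316 (95% interval 108 to 1540; adjusted p = 2.43e-07, edgeR). Zfp977 (chr7:42579783-42592547, minus strand, 11 fingers) had 1, 0, 2 and 0 against 159, 142 and 146, a ratio of 178 (60.4 to 865; adjusted p = 2.21e-06, edgeR). These 2 genes share few sequences with others, 15.6% and 8.47% of their 50-base sequences, so most of their transcript sequence is found in no other gene. Zfp976, next to Zfp977, had 91, 14, 17 and 30 against 176, 189 and 138 (log2 fold change 2.07 ± 0.46, adjusted p = 0.00368, edgeR), with the MEF library of 11441278 counts above the other MEF libraries. Zfp975 had 125, 140, 97 and 86 against 166, 213 and 164, with a log2 fold change of 0.49 ± 0.27 that did not pass (adjusted p = 0.162, edgeR). It passed with library totals (0.77, adjusted p = 0.0306) and without the MEF library of 7312679 counts (0.72, adjusted p = 0.0373).

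The chromosome 17 cluster spans 10 genes, all tested, of which 2 were higher in mESCs, 1 was lower and 7 did not pass. Their log2 fold changes ran from -1.04 to 0.95, with a median of 0.14. Zfp995 had 141, 81, 159 and 96 counts in MEFs and 253, 232 and 220 in mESCs (log2 fold change 0.82 ± 0.22, adjusted p = 0.00913, edgeR). Zfp946 had 72, 91, 82 and 87 against 226, 174 and 168 (0.95 ± 0.28, adjusted p = 0.0171), and its adjusted p was 0.0691 without the mESC library of 8193825 counts. Both were higher in mESCs by less than 2-fold.

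Zfp948 (chr17:21567008-21588699, 15 fingers) was lower in mESCs by 2.05-fold, the 1 gene of the 64 that fell by at least 2-fold. It had 679, 228, 372 and 308 counts in MEFs and 243, 201 and 183 in mESCs, or 44.6 ± 11.8 and 26.4 ± 2.85 CPM (log2 fold change -1.04 ± 0.23, adjusted p = 0.00332, edgeR). The lowest MEF library, at 31.2 CPM, lay just above the highest mESC library, at 29.7. It was the only gene of the 64 whose mESC libraries all lay below the MEF libraries on both scales. Its change did not pass a test against a fold change of 2 (adjusted p = 0.514).

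Zfp942, also on chromosome 17, had 205, 118, 884 and 160 counts in MEFs and 497, 374 and 359 in mESCs, or 38.7 ± 38.6 and 51.7 ± 7.78 CPM. Its log2 fold change was 0.13 ± 0.55 (adjusted p = 0.871, edgeR). The MEF library of 9176467 counts decided this value. Without it the log2 fold change was 1.13 and passed the test (adjusted p = 0.00231). The other 6 genes of the cluster that did not pass were Zfp943, Zfp983, Zfp994, Zfp945, Zfp944 and Zfp947, with log2 fold changes from -0.87 (Zfp943, adjusted p = 0.0596) to 0.80 (Zfp947). Zfp943 did pass with DESeq2 (-0.85, adjusted p = 0.0455) and without the mESC library of 8057985 counts (-1.13, adjusted p = 0.045), and Zfp944 passed with library totals (0.75, adjusted p = 0.0213).

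On chromosome 8, Zfp930 had 93, 41, 63 and 74 counts in MEFs and 140, 227 and 234 in mESCs (log2 fold change 1.41 ± 0.30, adjusted p = 0.0028, edgeR), with no overlap in CPM. Zfp963 had 25, 11, 13 and 9 against 2, 17 and 30 and did not pass (0.09 ± 0.72, adjusted p = 0.933), its mESC libraries lying on both sides of the MEF libraries. It also overlaps the exons of Gm20422 over 937 bases on the same strand. Zfp964, with 2 to 21 counts per library, was not tested.

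Among the 19 genes that stood alone, 18 were tested, 6 were higher and Zfp950 was lower. Zfp960 (chr17:17064113-17089628, 13 fingers) had 12, 7, 7 and 10 counts in MEFs and 98, 169 and 98 in mESCs (log2 fold change 3.57 ± 0.39, adjusted p = 2.75e-05, edgeR). It shared 82.7% of its 50-base sequences with other genes, 81.4% with Zfp97, so its value is uncertain in size. Zfp958 had 48, 25, 18 and 29 against 185, 144 and 164 (2.29 ± 0.31), and Zfp941 had 19, 9, 8 and 6 against 52, 35 and 75 (2.24 ± 0.46). Both had every mESC library above every MEF library.

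Zfp951 had 9, 12, 13 and 30 counts in MEFs and 59, 119 and 55 in mESCs (1.99 ± 0.56, adjusted p = 0.0131, edgeR). The mESC library of 8057985 counts was the highest, and without it the adjusted p was 0.0749 at a log2 fold change of 1.54. Zfp961 had 62, 41, 32 and 48 against 200, 199 and 201 (1.94 ± 0.27, adjusted p = 0.000175), with 181 of its exon bases overlapping Cyp4f18 on the other strand. Zfp932, a known repressor of endogenous retroviruses, had 104, 66, 97 and 90 against 301, 202 and 305 (1.41 ± 0.24, adjusted p = 0.000651). It shared 34.9% of its 50-base sequences with its near copy Gm15446.

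Zfp950 (chr19:61053840-61140840, 17 fingers) had 395, 193, 408 and 215 counts in MEFs and 163, 254 and 151 in mESCs, or 34.6 ± 7.47 and 23.9 ± 6.62 CPM. It was lower in mESCs, with a log2 fold change of -0.81 ± 0.25 (adjusted p = 0.0212 by edgeR). The cell types did not overlap with TMM but did with library totals, where the mESC library of 8057985 counts reached 31.5 CPM and the lowest MEF library 26.4. The call was lost with library totals (-0.53, adjusted p = 0.092) and without the MEF library of 9176467 counts (-0.67, adjusted p = 0.0571), the mESC library of 8193825 (-0.69, adjusted p = 0.0857) or that of 7462710 (-0.70, adjusted p = 0.0758).

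The 11 that stood alone and did not pass were Zfp940, Zfp956, Zfp953, Zfp937, Zfp959, Zfp938, Zfp952, Zfp954, Zfp939, Zfp974 and Zfp949, with log2 fold changes from -0.90 to 1.27. Zfp940 had 28, 23, 7 and 19 counts in MEFs and 58, 70 and 33 in mESCs, with no overlap (1.27 ± 0.50, adjusted p = 0.0564, edgeR). Zfp937 likewise did not overlap, at 5.18 ± 0.928 CPM in MEFs and 10.4 ± 1.71 in mESCs (0.73 ± 0.30, adjusted p = 0.0711). Both passed with DESeq2 (adjusted p = 0.0352 and 0.048). Zfp956 passed with library totals (adjusted p = 0.0385) and without the mESC library of 8057985 counts (adjusted p = 0.023), and Zfp938 with library totals (adjusted p = 0.043). Across all 24 genes that were tested and did not pass, adjusted p-values ran from 0.0564 to 0.933, which does not show that their levels were equal.

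The 27 genes that were higher and the 2 that were lower all encode a KRAB A box by pattern. So do 50 of all 53 tested genes and 21 of the 24 that did not pass, so nearly every tested gene has it. The box was not found in Zfp956, Zfp957, Zfp972 and Zfp974, and Zfp939 has no annotated coding sequence. Of these 5, Zfp956 (adjusted p = 0.0959), Zfp974 (0.449) and Zfp939 (0.807) were tested by edgeR and did not pass. The 27 had 2 to 18 fingers with a median of 11, as did the 24 that did not pass, with 6 to 21 and the same median. The number of fingers thus had the same centre in both.

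The chromosome 2 cluster held 8 of the 11 genes that could not be tested. Zfp968, Zfp967 and Zfp973 had 0 counts in all 7 libraries, which allows up to 0.262 to 0.46 CPM of uniquely placed reads in each and sets no limit on reads shared with other genes. Zfp965 had 2, 0, 1 and 0 counts in MEFs and 0 in every mESC library, Zfp969 had 0, 0, 2 and 0 against 1, 0 and 0, and Zfp966 had 0, 1, 2 and 1 against 2, 2 and 0. Zfp970 had 6, 0, 10 and 0 against 1, 2 and 7. These 7 genes gave too few reads in either cell type for a difference to be detectable at this depth.

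Zfp972 was the exception among them. It had 0 counts in every MEF library and 19, 4 and 3 in mESCs, at least 10.3-fold higher against a floor of 3 counts over the MEF libraries, most of it from the mESC library of 8193825 counts. Of the cluster's 2 tested genes, Zfp931 had 64, 103, 42 and 77 in MEFs and 114, 93 and 86 in mESCs (log2 fold change 0.18 ± 0.40, adjusted p = 0.737, edgeR). Zfp971 had 6, 10, 6 and 7 against 21, 13 and 9 (0.73 ± 0.58, adjusted p = 0.333). The libraries of the cell types overlapped for both.

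Elsewhere 3 genes were not tested. Zfp935, on chromosome 13, had 0 counts throughout. Its exons lie wholly within those of other genes on the same strand, Gm49359 and Zfp934, and all of its 50-base sequences occur in another gene. Its neighbour Zfp934 was read at 62, 46, 74 and 52 counts in MEFs and 55, 64 and 73 in mESCs (-0.05 ± 0.30, adjusted p = 0.916, edgeR). Zfp957, alone on chromosome 14, had 0 to 4 counts per library although only 0.229% of its sequences are shared, and Zfp964 on chromosome 8 shared 2.26%.

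The deposited counts hold only reads with a single place in the genome, so a gene with near copies loses reads. The share of a gene's 50-base transcript sequences that also occur in another annotated gene had a median of 87.4% in the chromosome 2 cluster (23.3% to 100%), 61.2% in the chromosome 4 cluster (1.83% to 89.0%), 7.81% on chromosome 17 and 2.83% for genes alone. All 5 genes over 90%, which were Zfp935, Zfp965, Zfp967, Zfp968 and Zfp969, were too low to test. The low counts of Zfp965, Zfp967, Zfp968 and Zfp969 cannot be told apart from reads discarded for lack of a single place. The share also takes in sequence of overlapping exons. Zfp935 shared 99.2% with Gm49359, whose exons overlap its own. Its lack of counts cannot be told apart from reads left out or given to another gene because of the overlap. On chromosome 4, 4 genes were over 80%. Of these, Zfp991 at 82.2% and Zfp993 at 86.8% had at least 296 counts in each mESC library, whereas Zfp986 at 86.4% and Zfp987 at 89.0% had 15 to 33. Of the 45 genes with at most 50% shared, 42 were tested, 17 were higher and 2 lower. Of the 7 such genes on chromosome 4, 6 were higher, as were all 9 over 50%. The protocol was 3'-biased, and the share over the last 500 bases of the longest transcript could differ from that over all transcript sequence. It was 61.9% for Zfp932 (37% over all) and 52.5% for Zfp981 (40%), both among the genes with at most 50% shared. For Zfp993 it was 100%, and for Zfp992 (43% over all) and Zfp979 (27.1%) it was 0%. Sharing is a property of the gene and equal in both cell types, but reads of a near copy could be placed wrongly. The part of this in the counts was not tested.

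**Figure D4:**
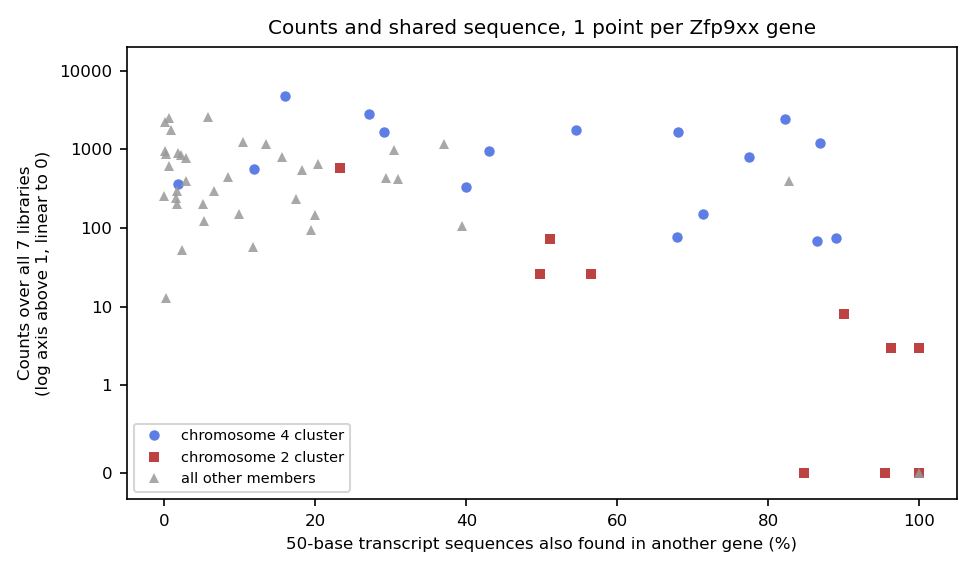
Counts summed over all 7 libraries (vertical axis, logarithmic above 1 and linear to 0) against the percentage of 50-base transcript sequences also found in another annotated gene, 1 point per Zfp9xx gene. Chromosome 2 genes (squares) lie at 0 to 8 counts where over 80% is shared, while chromosome 4 genes (circles) with over 80% shared lie between 68 and 2448.

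KRAB zinc finger proteins act through a common set of partners. The partner list of 24 genes also held Zfp57, Zfp568, Zfp809 and Zfp819, which are KRAB zinc finger genes themselves. It was wider still, with Trim24 and Trim33 and with other factors of silencing and DNA methylation such as Tasor, Mphosph8, Uhrf1 and Dnmt1. The shares below are therefore those of the whole list and not of direct KRAB partners. Of the 24, 15 were higher in mESCs (62.5%, against 22.8% of all tested genes), among them Zfp57, Zfp568 and Zfp819. In the same list 3 were lower (12.5%, against 25.0%) and 6 did not pass. Trim28, the co-repressor that binds the KRAB domain, was read at 151 ± 29.9 CPM in MEFs and 447 ± 47 in mESCs (log2 fold change 1.29 ± 0.17, adjusted p = 0.000102, edgeR). Setdb1, the histone methyltransferase it recruits, rose from 7.43 ± 2.07 to 18.1 ± 0.595 CPM (1.01 ± 0.27), and its cofactors Atf7ip and Atf7ip2 by 0.79 and 2.86 on the log2 scale. Tasor and Mphosph8, subunits of the HUSH silencing complex, were higher by 2.19 and 1.88, while their partner Pphln1 did not pass (-0.98, adjusted p = 0.0661) and neither did Morc2a. Of the heterochromatin proteins Cbx1 was higher (0.60), Cbx3 lower (-0.73) and Cbx5 not called.

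Among enzymes of the same pathway, Hdac1 was higher (0.76) and Hdac2 lower (-0.52), and Chd3, a helicase of the NuRD complex, was lower by a log2 fold change of -4.18 while its relative Chd4 did not pass. With library totals Hdac2 (adjusted p = 0.2) and Cbx3 (0.0671) no longer passed, which left Chd3 as the 1 lower gene of the 24. Trim24 and Trim33, relatives of Trim28, were higher by 2.16 and 1.53, the remodeller Smarcad1 by 1.62 and the DNA methylation factor Uhrf1 by 1.01, and Dnmt1 did not pass. Of KRAB zinc finger genes with lower numbers, Zfp819 had 1, 0, 2 and 0 counts in MEFs and 140, 141 and 170 in mESCs. Zfp57, which protects imprints, and Zfp568 were higher by 1.85 and 1.43, and Zfp809, a repressor of murine leukaemia virus, did not pass (0.72, adjusted p = 0.114) except with library totals (adjusted p = 0.0345).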

How the data were processed

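RNA-seq was performed on 4 MEF and 3 mESC samples with a 3'-biased protocol that adds a molecular identifier to each molecule. The authors demultiplexed and trimmed reads and mapped them to mm10 by STAR (2.4.2a in the submitters' processing notes, another release in the methods). Duplicates of an identifier were collapsed by Je, and exon counts of reads with a unique place were made by featureCounts. The authors deposited whole-number gene counts without normalization. The annotation release and strand setting of the counting are not given in the sources used here, so genes with exons that overlap another gene are uncertain. The extraction text of the labels names another cell type. Column names give the cell type but are not tied to a numbered sample, so libraries are named by their totals, 6528643 to 11441278 counts. All column names carry the same number after the cell type, whereas the sample titles are numbered in sequence. A letter that follows differs between the cell types and is not explained. Whether the libraries of a cell type come from separate samples is thus not settled by the column names. The number of columns left unused was 0. Symbols in the form of dates (26 rows, 0.249% of counts) stayed in the totals.

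Differences were tested with edgeR 4.0.16 (limma 3.58.1, R 4.3.3) on all 7 libraries without covariates, using TMM, filterByExpr and the quasi-likelihood test, with Benjamini-Hochberg adjustment over 16580 genes and a threshold of 0.05. The SE of a log2 fold change was derived from the test, as the absolute log2 fold change over the square root of the F statistic. Floors of 3 counts and 95% intervals of pooled ratios (exact binomial) cover counting error only. In simulated counts of 16580 genes, the code recovered 193 of 200 that had been given a log2 change of 2, with 9 false calls. It made 0 calls where none had been given. The simulation used 1 dispersion of 0.05 for all genes and equal numbers of rises and falls. It checks the code and gives no error rate for these data, where TMM and library totals differ. Coordinates, KRAB A boxes, C2H2 fingers and shared 50-base transcript sequences came from GENCODE M21 on GRCm38, and promoter windows from RefSeq, compared by global alignment (Biopython 1.88). Alternatives were DESeq2 1.42.0, library totals, DESeq2's size factors in edgeR, no filter beyond 1 count, at least 10 counts in every library of a cell type, a test against a fold change of 2, a prior count of 0.5 in place of 2 for log2CPM, genes with at most 50% of sequences shared, and each library left out. Genes with an adjusted p under 0.05 and an absolute log2 fold change of at least 1 are given with every library's count. Called genes of the partner list are given with a fold change or level, and the rest in groups. Other genes given with single values were chosen after their values were seen. The genes, the partner and marker lists and the rules were chosen with earlier results of these data known.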

Additional observations from a re-analysis of the deposited data

Results flagged for a closer look

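Of the 58 genes that varied among the 4 MEF libraries, 7 had 1 library far from the other 3, by Dixon's test at the 95% level. For continuous values chance gives about 1 in 20, or 2.9 genes. Low counts are not continuous. Where 3 libraries have 0 counts the test's ratio is always 1, as for Zfp969, Zfp986 and Zfp988. The 7 therefore cannot be compared with 2.9. Zfp942 was flagged for a level of 96.3 CPM (884 counts, library total 9176467), against 16.1 to 24.5 CPM in its 3 companions. Zfp978 stood apart at 0.82 CPM (6 counts) in the MEF library of 7312679 counts, and Zfp963 at 2.19 CPM (25 counts) in that of 11441278. The rest are single low counts: Zfp988 at 0.262 CPM (3 counts) in the library of 11441278 counts, Zfp969 at 0.218 CPM (2 counts) in that of 9176467, Zfp986 at 0.137 CPM (1 count) in that of 7312679, and Zfp957 at 0 CPM in that of 11441278 where the other libraries had 2 or 3 counts. The mESC group of 3 libraries is too small for this test.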

How the results depend on the processing

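Over 682 values of the log2 fold change of single Zfp9xx genes under the alternatives, 636 kept their direction and side of the threshold, 14 lost the call, 14 gained it and 18 changed sign, none of the last for a gene that had passed. The count of genes higher in mESCs was 33 with library totals, where 5180 of all 16580 tested genes were higher. It was 21 against a fold change of 2 and 26 to 29 when each library was left out. Only 42 of the 53 tested genes had at most 50% of sequences shared. Of these 42, 17 were higher (40.5%, against 22.8% of all tested genes). The count lower was 1 with library totals, 1 to 3 when each library was left out, and 0 against a fold change of 2 (edgeR's glmTreat, also 0 at an unadjusted p under 0.05; DESeq2 gave 3 against no change). That test left 1714 genes higher and 2277 lower of all tested, and of the partner list 9 higher and 1 lower. By construction it asks for larger changes. Library totals also left 1 gene of the partner list lower. With at most 3 counts in every library as the limit, 7 and not 11 genes were too low. With library totals the log2 fold change was 0.0053 for Zfp933, 0.1326 for Zfp954, 0.0173 for Zfp939, 0.2338 for Zfp934 and 0.226 for Zfp994. Leaving out 1 library gave -0.0414 to 0.5042 for Zfp931, -0.3484 to 0.004 for Zfp954, -0.6077 to 0.0535 for Zfp939, -0.7307 to 0.6116 for Zfp963, -0.1889 to 0.0752 for Zfp934, -0.1299 to 1.1296 for Zfp942 and -0.2183 to 0.1419 for Zfp994. The cause of these changes was not tested. The summed mESC level was 1216 CPM with TMM and 1047 over genes with at most 50% shared. No paired analysis was possible because the count columns are not tied to the numbered samples. Few counts limit the 11 untested genes, for which depth and reads lost to near copies or overlapping genes were not separated, and the size of each ratio against 3 or fewer MEF counts.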
